A study of Mus musculus with 1753 samples.

Results

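Solute carriers are membrane proteins named Slc with a family number. Of the 371 protein-coding genes of this name in the count table of mouse skeletal muscle stromal cells, 175 (47.2%) are described here. They were chosen by their measured counts, as the genes with a raw count of 5 or more in at least 10% of the cells of any cluster among 1 to 4 and 6 to 10, so detection itself is a description and was given no test. They belonged to 42 of the 49 families in the table and took 1.04% of all counts.

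Solute carriers move amino acids, sugars, ions, metals, nucleosides, vitamins and metabolites across the plasma membrane and the membranes of organelles, mostly by facilitated diffusion or by coupling to the gradient of another solute. Those of the mitochondrial family exchange nucleotides, phosphate and metabolites across the inner mitochondrial membrane, and those of the nucleotide sugar family supply the Golgi apparatus and endoplasmic reticulum with substrates for glycosylation. Fibroblasts lay down the connective tissue of muscle, and mural cells are the pericytes and smooth muscle cells around its vessels. Both kinds of cell take up nutrients for themselves and regulate the ions that pass their membranes.

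The cells were single fibroblasts and mural cells of adult male mice, 10 to 20 weeks old, sorted from hindlimb muscle and sequenced with Smart-seq2. The 1753 labelled cells fell into 10 clusters named in the labels and into 5 strain labels on 8 plates. C57BL6 carries no reporter, and its cells were sorted with antibodies against PDGFRα and PDGFRβ, the receptors for platelet-derived growth factors. Acta2GFP, Cspg4dsRED and PdgfrbGFP carry a fluorescent protein under the promoter of the named gene, and the PdgfraGFP - PdgfrbGFP pool, called the pool below, joins cells of a Pdgfra and a Pdgfrb reporter line. All lines had been backcrossed to C57Bl6/J, CD31+ endothelial cells were gated out in all of them, and elastase was added in the dissociation of Acta2GFP muscle. A reporter or antibody sort takes only the cells with that promoter or protein active, so the mix of cells in a strain label follows the sort. The labels name no animal, and the strain label was treated as the replicate, on the assumption that each stands for other mice. If a mouse was shared between the pool and PdgfrbGFP, these were not independent.

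Class names follow the study, with clusters 2 and 9 perimysial (around bundles of fibres), clusters 1, 3, 5, 6 and 8 endomysial (around single fibres), cluster 4 paramysial (between these layers), cluster 7 mural, and cluster 10 without a class name. All clusters other than 7 are called fibroblasts here. The summed level of 5 fibroblast markers (Pdgfra, Col1a1, Lum, Dcn and Cd34) was 8691 ± 1214 (SD, n = 5 strains) in fibroblasts and 438 ± 204 in cluster 7, and that of 7 mural markers (Myh11, Notch3, Mcam, Rgs5, Acta2, Tagln and Des) was 204 ± 170 and 10754 ± 2200. These and all levels below are scaled counts, counts per cell after each cell was scaled to 500000 counts without spike-ins, averaged over the cells of a class within a strain and then over strains. Cells held 46097 to 1055869 counts, with 258251 as the median. Cspg4dsRED was the shallowest strain label, with a median of 121646 counts and 2283 genes per cell against 179700 to 367563 counts and 4057 to 5443 genes in the others, and 46 of its 51 endomysial cells belonged to cluster 6. Few cells stood behind some values, since C57BL6 had 9 mural and 3 paramysial cells and the pool had 11 mural cells.

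Detection was uneven among clusters. In cluster 4, 148 of the 175 carriers passed the detection rule, against 77 in cluster 7 and 78 in cluster 10. The median depth was 595321 counts per cell in cluster 4, 156959 in cluster 7 and 187616 in cluster 10, the deepest and the shallowest clusters among those used. The median number of genes of any kind per cell was 6903, 3907 and 2696 in the same order. How many of all genes pass the rule in each cluster was not counted, so the unevenness is not shown to be particular to carriers. In cluster 9, 130 passed at a median depth of 296083, and in cluster 8, 105 passed at 277080. Across all 9 clusters 43 carriers passed in every one, and 36 passed in 1 cluster only, of which 17 were in cluster 4, 11 in cluster 7 and 6 in cluster 9. The part of depth in these counts was not tested. Just inside the threshold lay Slc25a30 and Slc8a1, the plasma membrane sodium-calcium exchanger, both at 10% of the cells of cluster 4. Slc24a3 (10.2% in cluster 7), Slc18a2 and Slc26a1 (10.2% in cluster 9 each) were also just inside. Just outside lay Slc6a12 (9.94% in cluster 1), Slc7a8 (9.88% in cluster 8), Slc6a7 (9.09% in cluster 8), Slc9a2 (8.56% in cluster 7) and Slc7a5 (8.47% in cluster 9).

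**Figure D1:**
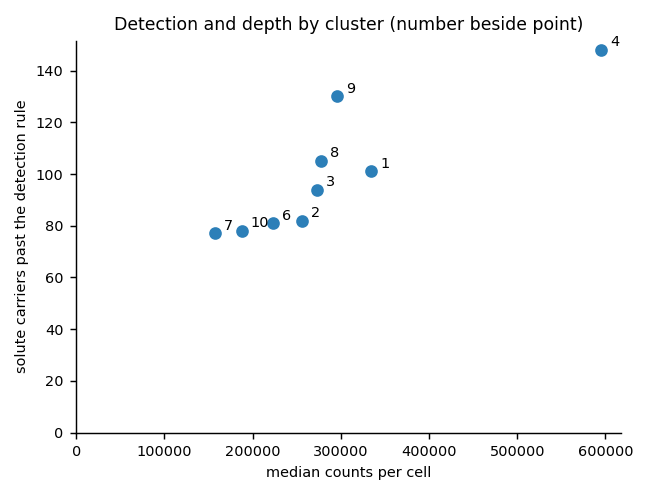
Number of solute carriers past the detection rule (y axis) against the median counts per cell (x axis), 1 point for each of the 9 clusters used, with its number beside it. Cluster 4, the deepest at 595321 counts, had 148 carriers past the rule, and cluster 7, the shallowest at 156959, had 77.

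By the substrates of their families, 34 of 47 mitochondrial carriers, 20 of 27 nucleotide sugar carriers and 23 of 33 metal carriers were members. The shares were lower among carriers of amino acids (27 of 70), inorganic ions (26 of 64), sugars (13 of 34) and other organic solutes (32 of 96). The symbols Slc4a1ap, Slc7a6os, Slc9a3r1 and Slc9a3r2 are named after a carrier without being carriers themselves. The last pair encode scaffold proteins that bind sodium-hydrogen exchangers. Of the 35 carriers on a list chosen for fibroblasts and vessels, Slc7a5, Slc7a11, Slc38a4, Slc2a3, Slc16a3, Slc39a8 and Slc30a1 did not pass the rule. For 10 members more than 20% of the exon bases overlapped another gene, which makes their counts uncertain. Among those named below these are Slc39a7, Slc6a9 and Slc16a9.

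Levels can be compared between genes only per length, here as counts per kilobase of exons, scaled within a class so that all genes add up to the same total. On that scale Slc25a4, the mitochondrial exchanger of ADP and ATP, was highest in fibroblasts at 543 ± 91.9 (SD, n = 5 strains). It was followed by Slc39a7, a zinc carrier of the endoplasmic reticulum, at 501 ± 184, Slc29a1, an equilibrative nucleoside carrier, at 404 ± 178, and Slc1a5, a carrier of glutamine and other neutral amino acids, at 374 ± 61.2. Next came Slc50a1, Slc48a1, Slc43a3, Slc25a11, Slc25a3 and Slc25a39, with Slc25a39 at 178. Slc25a4 and Slc1a5 did not overlap over strains, and Slc39a7 and Slc29a1 overlapped with both. In mural cells Slc25a4 was at 1386 ± 184 per length, above Slc25a5, a second ADP and ATP exchanger, at 636 ± 245, and Slc2a4, the insulin-responsive glucose carrier, at 501 ± 177. Slc25a3, the mitochondrial phosphate carrier, was at 421 ± 69.7 in mural cells. Slc25a4 lay above all others there in every strain, and the next 3 overlapped. Slc25a39, Slc48a1, Slc25a11, Slc1a5, Slc9a3r1 and Slc50a1 followed, with Slc50a1 at 160.

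Within each substrate group, the pair of members with the most scaled counts in fibroblasts was chosen, which favours long genes, and their levels are given here per length. Slc29a1, Slc1a5, Slc39a7, Slc25a4 and Slc50a1 (320 ± 53.2) had the highest mean of their groups on this scale as well. Next to them, Slc43a3 was at 222 ± 67.2 in the families of amino acid carriers, Slc48a1, a haem carrier, at 245 ± 24.4 among metal carriers and Slc25a3 at 185 ± 21.2 among mitochondrial carriers. The nucleotide sugar carriers Slc35b2 (131 ± 31.7) and Slc35a4 (129 ± 43.2) overlapped over strains. So did Slc12a4, a potassium-chloride cotransporter (86.3 ± 8.30), and Slc9a3r2 (93.5 ± 81.7) in the group for inorganic ions. Slc44a2, of the organic solute group, was at 76.7 ± 27.1, and Slc5a3, of the sugar group, at 27.1 ± 20.2. Relative to their means, Slc12a4 and Slc48a1 varied least over strains among these, and Slc9a3r2 and Slc5a3 most.

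Of the 173 members with a level of 5 or more in a cluster, 35 (20.2%) had their highest level in cluster 7, 29 (16.8%) in cluster 9, 27 (15.6%) each in clusters 4 and 10, 18 (10.4%) in cluster 1 and 17 (9.83%) in cluster 2. For all 12751 genes at that level the shares were 22.1%, 14.7%, 12.7%, 13.8%, 12% and 6.30%. The index tau, which is 0 for a gene at the same level in all clusters and nears 1 for a gene in a single cluster, had a median of 0.57 for members and 0.53 for all genes.

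**Figure D2:**
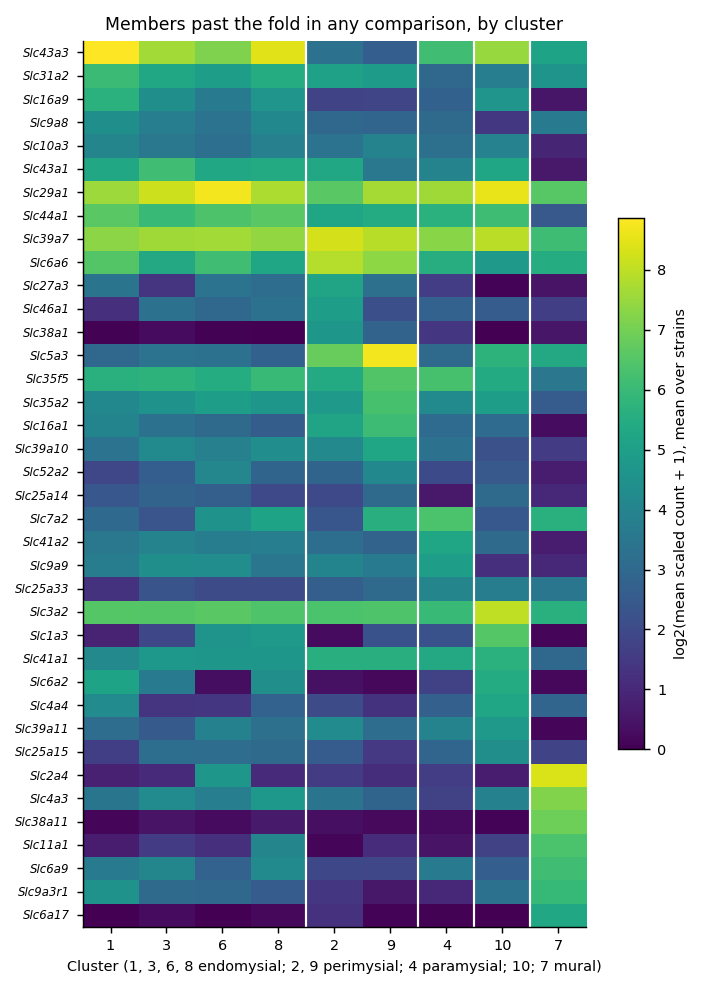
Level of the members that differed by 2-fold or more in every strain in any comparison, other than those not reported here (rows), by cluster (columns, grouped by class), as log2 of the mean scaled count plus 1 averaged over strains (colour scale). Slc38a11 and Slc6a17 are bright in cluster 7 and dark in the other clusters, and Slc5a3 is brightest in cluster 9.

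Clusters had been made by the authors from these same counts, so no test was made between classes. The question put to each comparison was which carriers mark a class in every strain. A member is called at least 2-fold higher or lower when the log2 ratio of its mean scaled counts plus 1 was at least 1 in size, in the same direction, in every strain with 3 or more cells on each side. The added count of 1 understates ratios of low genes. For mural cells against fibroblasts 159 members had a level of 5 or more on either side. Of these 7 were at least 2-fold higher in mural cells, a share of 4.40% against 4.52% of all 11028 genes, and 18 were at least 2-fold lower, 11.3% against 8.51%. The median log2 ratio was −0.66 over the members and −0.33 over all genes.

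The carriers led by mural cells carry glucose, amino acids, anions and metals, and the scaffold gene Slc9a3r1 was led by them too. In the order Acta2GFP, C57BL6, Cspg4dsRED, the pool and PdgfrbGFP, Slc2a4 stood at 343, 173, 508, 279 and 351 in mural cells and at 2.62, 2.24, 36.2, 1.82 and 1.22 in fibroblasts. The groups did not overlap, and the log2 ratio was 6.01 ± 1.37 (SD, n = 5 strains). Slc38a11, of the sodium-coupled neutral amino acid carrier family, stood at 85.6, 61.7, 109, 210 and 135 in mural cells and did not exceed 0.921 in fibroblasts of any strain. Its log2 ratio of 6.42 ± 0.80 was the highest among the members. Slc6a17, a vesicular carrier of neutral amino acids known from neurons, was at 50.6, 83.2, 25.1, 11.4 and 20.5 in mural cells against at most 0.894 in fibroblasts, a log2 ratio of 4.68 ± 1.19. Slc4a3, a chloride-bicarbonate exchanger, was at 136, 203, 116, 134 and 130 against 12.7 to 17.3 in fibroblasts and was the steadiest of the 7, with a log2 ratio of 3.17 ± 0.37. Slc6a9, a glycine carrier that shares exon bases with an antisense gene, had a mean of 70.5 ± 28.2 against 10.6 ± 3.70, a log2 ratio of 2.59 ± 0.42. Slc9a3r1 had a mean of 60.4 ± 36.4 against 8.18 ± 3.44, a log2 ratio of 2.62 ± 0.52.

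Slc11a1, a divalent metal carrier known from the phagosomes of macrophages, was at 39.5, 326, 10.5, 19.5 and 9.57 in mural cells and at 6.29, 3.89, 0.132, 0.349 and 3.31 in fibroblasts. Its log2 ratio was 3.42 ± 1.78, and 2.76 without C57BL6. The summed level of 5 immune markers (Ptprc, Cd68, Adgre1, Csf1r and Lyz2) in mural cells was 403 in C57BL6, from 9 cells, and 0.437 to 6.83 in the other strains. In the pool all of these markers but Csf1r were at 0, while Slc11a1 was at 19.5. The muscle fibre markers (8 genes), whose tissue also holds Slc2a4 and Slc25a4, summed to 23.5 to 135 in mural cells and 64.3 to 113 in fibroblasts, so they were not higher in mural cells of every strain. The part of other cells in these values was not tested.

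The start regions are given for 3 carriers that were high in mural cells. RefSeq promoter windows of 300 bases on GRCm38.p6 were matched to 132 of the 175 members (178 windows), and searched on both strands for TGATGNAA, the amino acid response motif, and for TGCACNC or TGCGCNC, the core of the metal response motif. TGATGNAA was found in 2.81% of member windows and 3.97% of all windows, the metal core in 36.5% and 25.7%. These are matches of letters and no evidence of binding. The 250 bases before the start are printed 5′ to 3′ on the strand of the gene, with matches in capitals (overlapping matches run together). Slc38a11 (chr2:65364027-65364276, minus strand) had 3 matches, Slc4a3 (chr1:75546212-75546461, plus strand) had 1, and Slc25a4 (chr8:46211063-46211312, minus strand), chosen as the highest carrier per length in both classes, had 2, all of the metal core.
Slc38a11: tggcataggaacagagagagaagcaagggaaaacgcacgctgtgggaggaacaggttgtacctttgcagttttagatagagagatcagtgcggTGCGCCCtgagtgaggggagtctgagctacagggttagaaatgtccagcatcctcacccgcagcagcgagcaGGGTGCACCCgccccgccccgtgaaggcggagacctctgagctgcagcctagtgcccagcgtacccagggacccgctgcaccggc
Slc4a3: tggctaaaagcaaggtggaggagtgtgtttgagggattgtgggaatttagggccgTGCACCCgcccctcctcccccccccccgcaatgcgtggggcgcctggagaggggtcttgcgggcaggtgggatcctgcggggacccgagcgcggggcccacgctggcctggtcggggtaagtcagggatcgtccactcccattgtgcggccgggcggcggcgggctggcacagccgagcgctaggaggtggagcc
Slc25a4: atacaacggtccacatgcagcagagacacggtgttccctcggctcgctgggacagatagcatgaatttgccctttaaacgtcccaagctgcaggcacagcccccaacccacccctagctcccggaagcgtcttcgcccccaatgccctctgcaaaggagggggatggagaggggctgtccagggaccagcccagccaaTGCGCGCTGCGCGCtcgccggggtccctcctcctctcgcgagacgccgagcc

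The mitochondrial carriers that led in level were higher in mural cells without reaching 2-fold in every strain. Slc25a4 stood at 669, 504, 696, 546 and 669 in mural cells against 239, 280, 208, 212 and 193 in fibroblasts. The groups did not overlap, and the log2 ratio was 1.44 ± 0.38 with 0.85 in C57BL6. Slc25a3 had means of 442 ± 77.2 and 182 ± 18.7, and Slc25a5 of 198 ± 77.8 and 48.5 ± 14.3, with log2 ratios of 1.27 ± 0.31 and 1.93 ± 0.78. None of the 31 mitochondrial members compared was past 2-fold in every strain, and their median log2 ratio was −0.12. A further pair of carriers, chosen after their values were seen, was high in mural cells of 4 strains only. Slc4a8, a sodium-driven chloride-bicarbonate exchanger, was at 40.8, 0.799, 52.9, 118 and 25.9, and Slc22a3, an organic cation carrier, at 37.2, 0, 11.6, 79.5 and 41, both lowest in the 9 C57BL6 cells.

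The carriers led by fibroblasts were mainly of organic solutes and metals. Slc43a1, a carrier of large neutral amino acids, was at 27.7, 41.3, 38.2, 47.7 and 60.6 in fibroblasts and at 1.04, 0, 0, 0.968 and 0.608 in mural cells, a log2 ratio of −4.88 ± 0.67. Slc44a1, a choline carrier, was at 56.5, 81.6, 41.6, 76.5 and 61.7 in fibroblasts and at 8.64, 2.10, 0.221, 2.85 and 9.32 in mural cells, a log2 ratio of −3.87 ± 1.21. Slc16a1, the lactate and pyruvate carrier, was at 28.6, 17.3, 4.91, 14.3 and 16.6 in fibroblasts and did not exceed 0.902 in mural cells. In none of these did mural cells and fibroblasts overlap. Of the next in order, Slc39a11, a zinc carrier, had a log2 ratio of −3.50 ± 0.74, Slc1a3, a glutamate carrier, of −3.37 ± 0.53, Slc6a2, the noradrenaline carrier, of −3.32 ± 0.82, Slc16a9 of −3.31 ± 0.78 and Slc27a3, of the fatty acid carrier family, of −3.08 ± 0.92. Slc29a1 was at 290 ± 140 in fibroblasts and 93.0 ± 23.7 in mural cells, and Slc39a7 at 232 ± 94.5 and 67.6 ± 46.2. The magnesium carrier Slc41a1 was lower in mural cells too, at 6.85 ± 5.90 against 27.1 ± 6.95.

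By group, 7 of 27 organic solute carriers and 5 of 23 metal carriers were at least 2-fold lower in mural cells of every strain, with median log2 ratios of −1.44 and −1.90. Over all 11028 genes 4.52% were higher and 8.51% lower, and these shares stand beside every group and list count here. Whether a group differs from all genes was not tested. These groups go by family number and not by the substrate of each gene. In the families of amino acid carriers 3 of 24 were higher and 3 lower, the noradrenaline carrier Slc6a2 among the lower. In the families of inorganic ion carriers 2 of 24 were higher, Slc4a3 and the scaffold gene Slc9a3r1, and 1 was lower. Among sugar carriers 1 of 11 was higher (Slc2a4), and among nucleotide sugar carriers 2 of 19 were lower (Slc35f5 and Slc35a2, which carries UDP-galactose). Of the 29 carriers of the list for fibroblasts and vessels that were compared, Slc2a4 was higher and Slc1a3, Slc16a1, Slc29a1 and Slc41a1 were lower. Among 13 genes whose products work with carriers, Atp1b2, a subunit of the sodium pump, was higher in mural cells (log2 ratio 6.40 ± 0.94), and Fxyd6, a regulator of that pump, was lower (−5.57 ± 1.66). None of the 4 organic anion transporters of the Slco family compared was past 2-fold in every strain. Without C57BL6, 13 members were higher and 21 lower, and without the pool 12 were higher and 20 lower, since fewer strains had to show the difference. All genes past 2-fold in either direction rose from 1437 to 1886 and 1679 in these settings. Mural cells were the shallowest cluster, and the part of depth in the lower levels was not tested.

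Several carriers on that list overlapped between classes over strains. Slc38a2, a carrier of small neutral amino acids, was at 74.5 ± 30.6 in endomysial, 83.0 ± 49.5 in perimysial and 100 ± 52.6 in mural cells. Slc12a4 was at 68.2 ± 8.78, 72.0 ± 20.5 and 52.9 ± 33.4, and Slc35b1, of the nucleotide sugar family, at 46.7 ± 11.8, 45.9 ± 19.5 and 51.8 ± 21.6. By contrast, Slc1a5 was at 325 ± 36.8 in endomysial, 169 ± 37.2 in perimysial and 133 ± 38.5 in mural cells, and its endomysial values of 280 to 377 lay above all values of the other classes named. The levels that follow are not per length and are not compared between genes. In endomysial cells Slc7a1, a cationic amino acid carrier, was at 9.60 ± 7.58 and Slc26a2, the sulfate carrier, at 10.6 ± 4.93. Slc20a1, a phosphate carrier, was at 7.68 ± 5.45 there and Slc39a14, a carrier of zinc and iron, at 4.35 ± 2.54. Slc35d1 was at 2.79 ± 2.20, Slc12a2, the sodium-potassium-chloride cotransporter, at 2.00 ± 1.14 and Slc8a1 at 0.961 ± 1.17. Some of these were higher on average elsewhere, with a wide spread over strains. Slc7a1 was at 27.4 ± 21.3 in cluster 2 and Slc20a1 at 32.6 ± 36.5 in cluster 9. In mural cells Slc12a2 was at 22.9 ± 37.2, Slc39a14 at 14.8 ± 21.8 and Slc35d1 at 12.3 ± 10.3. Slc20a2, the other phosphate carrier, was at 101, 0, 68.3, 49.9 and 92.1 in mural cells against 1.55 to 15 in fibroblasts, and again C57BL6 lay apart. Slc2a1, the basal glucose carrier, was at 8.46 to 50.4 in mural cells and 5.64 to 10.1 in endomysial cells outside Cspg4dsRED.

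**Figure D3:**
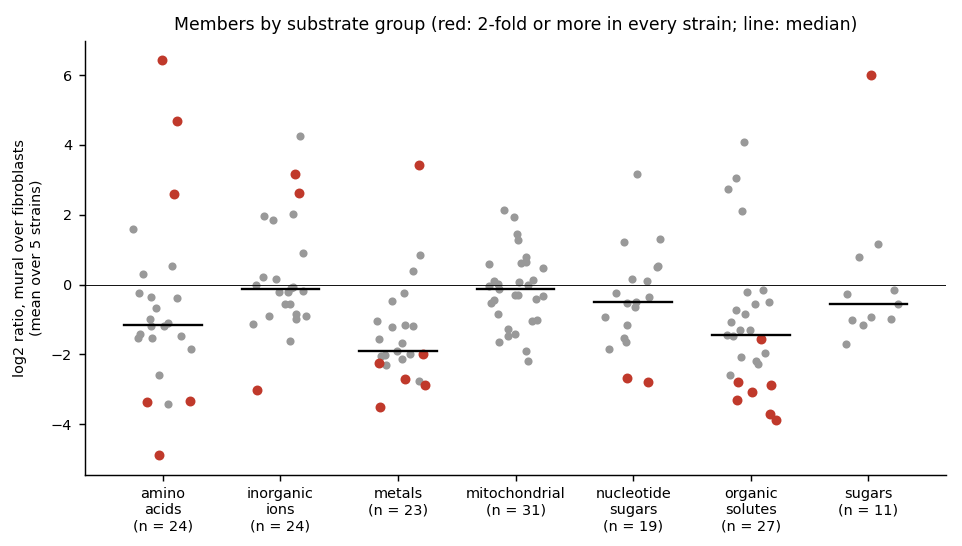
Log2 ratio of mural cells over fibroblasts for each of the 159 members compared (points), mean over 5 strains, by substrate group (x axis), with the group median as a line. Red points were 2-fold or more in the same direction in every strain, and 7 of these lie above and 18 below 0.

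Perimysial cells differed from endomysial cells in few carriers, all but 1 of them of the families of amino acid carriers. Of 145 members compared, 2 were at least 2-fold higher in perimysial cells of every strain and 2 lower, 1.38% each, against 2.13% and 3.69% of all 10476 genes. Slc6a6, the taurine carrier, stood at 149, 222, 208, 281 and 204 in perimysial and 45.2, 48.3, 59.3, 72.5 and 36 in endomysial cells. The groups did not overlap, and the log2 ratio was 2.02 ± 0.31. Slc38a1, a carrier of glutamine and other neutral amino acids, was at 26.3, 6.20, 2.82, 22.4 and 36.4 against at most 0.360, a log2 ratio of 3.73 ± 1.31. It was found in few perimysial cells, 10.1% of which had 5 or more counts. Slc43a3, a carrier of purine nucleobases whose family is otherwise of amino acid carriers, was at 249, 275, 112, 281 and 262 in endomysial and 14, 15, 1.02, 5.39 and 4.83 in perimysial cells, a log2 ratio of −4.99 ± 0.84. The 5 endothelial markers summed to 123, 84.9, 23.5, 87.3 and 90.8 in endomysial and to 21, 5.39, 8.50, 9.80 and 9.08 in perimysial cells, and Cspg4dsRED was the lowest endomysial value of both the markers and Slc43a3. Most of the sum was Tek, a receptor of angiopoietins, at 74.6 ± 37.8 in endomysial and 2.18 ± 2.92 in perimysial cells, while Pecam1 was at 4.04 ± 3.14 and 3.18 ± 2.82 and Kdr and Cdh5 did not exceed 1.62 in endomysial cells. Their part in the difference was not tested. Slc9a3r1 was lower as well, at 1.46 ± 1.18 against 9.12 ± 4.29.

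Slc5a3, the sodium-coupled myo-inositol carrier, was chosen here after its values were seen. It was at 282, 185, 1.27, 179 and 177 in perimysial and 11.8, 6.73, 0.209, 10.9 and 9.67 in endomysial cells. Its log2 ratio was 3.92 to 4.58 in 4 strains and 0.91 in Cspg4dsRED, where it was near 0 in both classes. The window before its start (chr16:92058072-92058321, plus strand) is shown because the gene had its own highest level in cluster 9, and held no match. Slc5a3 and Mrps6 share 1.46% of exon bases on the same strand.
Slc5a3: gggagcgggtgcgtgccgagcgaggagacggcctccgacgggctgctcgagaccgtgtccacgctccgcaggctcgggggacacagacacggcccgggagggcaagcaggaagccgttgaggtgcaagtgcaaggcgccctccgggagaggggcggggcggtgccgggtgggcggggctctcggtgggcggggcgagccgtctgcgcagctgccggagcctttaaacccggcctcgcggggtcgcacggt

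Without Cspg4dsRED, 6 members were higher and 6 lower, Slc5a3 and Slc40a1 among the higher, and without Acta2GFP 7 were past 2-fold in all. Over all genes the number past 2-fold went from 610 to 940 and 730 in these settings. Of the pump regulators and partners, Emb and Fxyd6 were higher in perimysial cells (log2 ratios 2.96 ± 1.08 and 2.47 ± 0.91). Slco2b1 was lower (−3.15 ± 1.18). Within the perimysial class, cluster 9 was compared with cluster 2 in 4 strains, and of 147 members 2 were higher in cluster 9 (1.36%, against 1.77% of all genes) and 0 lower (against 1.81%). Slc5a3 was at 353, 524, 360 and 420 in cluster 9 of Acta2GFP, C57BL6, the pool and PdgfrbGFP and at 146, 155, 119 and 135 in cluster 2, a log2 ratio of 1.56 ± 0.20. Slc7a2, a carrier of arginine and other cationic amino acids, was at 83.6, 35, 51.7 and 17.5 against 6.54, 4.57, 1.03 and 8.26, a log2 ratio of 2.97 ± 1.55. Neither overlapped between the clusters. This count was 5 without Acta2GFP, 7 without C57BL6, 12 without the pool and 6 without PdgfrbGFP. For all genes it was 747, 674, 674 and 678, against 374 with no strain left out.

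**Figure D4:**
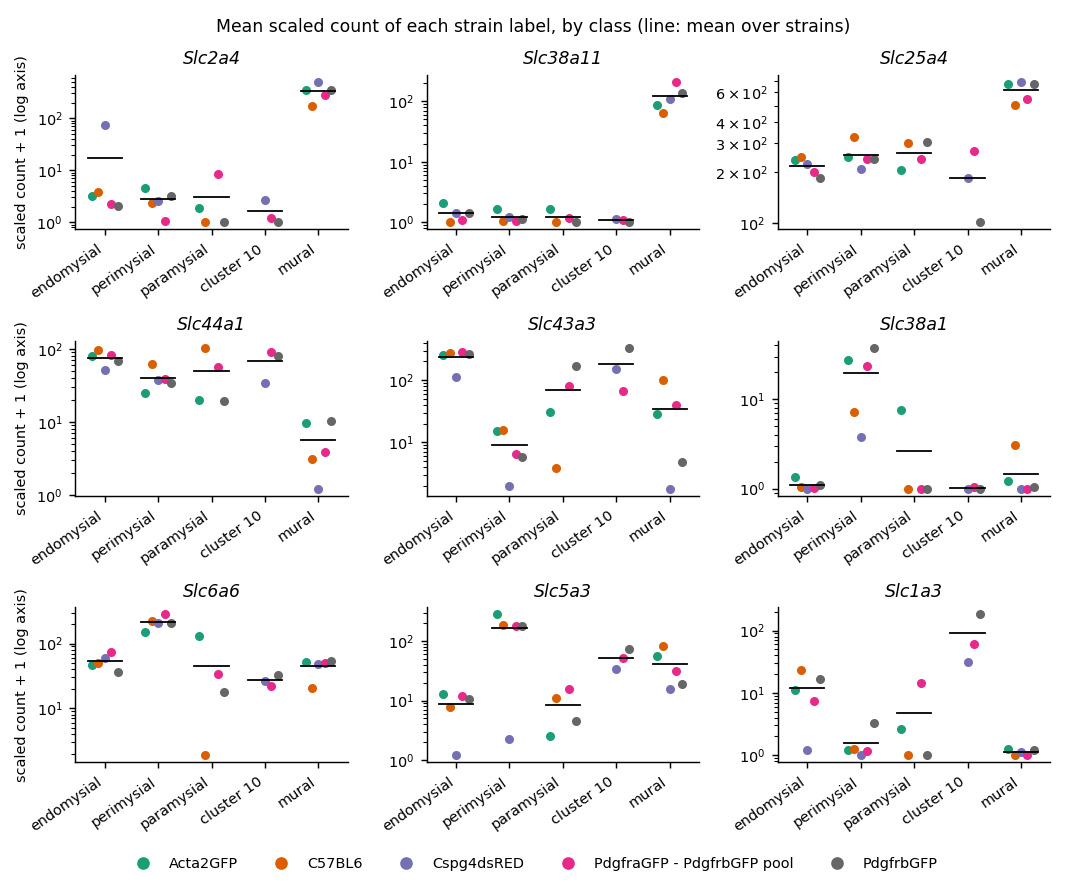
Mean scaled count plus 1 (log axis) of 9 carriers in each class (x axis), 1 point per strain label with 3 or more cells and a line at the mean over strains. Slc2a4, Slc38a11 and Slc25a4 stand highest in mural cells, Slc38a1, Slc6a6 and Slc5a3 in perimysial cells and Slc1a3 in cluster 10, and Cspg4dsRED lies apart from the other strains for Slc2a4 in endomysial and Slc5a3 in perimysial cells.

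Paramysial cells, compared in 4 strains of which 3 had 3 to 6 cells, had no member at least 2-fold above endomysial cells in every strain (0 of 152, against 0.308% of all genes). Of the members 3 (1.97%) were lower, against 2.64% of all genes. Slc31a2, a copper carrier, was at 1.65, 0.424, 17.5 and 8.48 in paramysial cells of Acta2GFP, C57BL6, the pool and PdgfrbGFP and at 51.1, 49, 39.2 and 37.8 in endomysial cells, with no overlap. Slc6a2 was at 0.411, 0, 9.12 and 0 against 5.97, 9.63, 24.1 and 23.1, and Slc25a14, of the uncoupling protein branch of the mitochondrial family, was at 0 in paramysial cells of 3 strains. Slc40a1, the iron exporter ferroportin, was at 132, 0, 72.3 and 75.1 in paramysial cells and 4.05, 5.70, 4.31 and 8.50 in endomysial cells. Slc7a2 was at 158, 0, 61.0 and 102 against 25.6, 6.36, 9.31 and 10.4. Both were at 0 in the 3 C57BL6 cells and were past 2-fold in each of the other 3 strains. The number of members past 2-fold was 25 without the pool, 8 without Acta2GFP and 6 without PdgfrbGFP. For all genes it was 1284, 532 and 450, against 307 with no strain left out. Fxyd6 was higher in paramysial cells (log2 ratio 2.11 ± 0.44).

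Cluster 10, whose cells held Ngfr at 112, 323 and 518, was compared with endomysial cells in the same strains, Cspg4dsRED, the pool and PdgfrbGFP. Of 145 members 5 were at least 2-fold higher (3.45%, against 2.73% of all genes) and 4 lower (2.76%, against 6.89%). In that order of strains Slc1a3 was at 29.9, 60.4 and 181 in cluster 10 and 0.220, 6.53 and 15.9 in endomysial cells, a log2 ratio of 3.71 ± 0.85 (SD, n = 3 strains). Slc3a2, the heavy chain of heterodimeric amino acid carriers, was at 298, 216 and 252 against 132, 74.5 and 92.7, a log2 ratio of 1.38 ± 0.18. Slc5a3 was at 32.9, 51.7 and 71.7 against 0.209, 10.9 and 9.67, and Slc4a4, a sodium-bicarbonate cotransporter, at 9.47, 59.7 and 38.5 against 0.126, 7.71 and 4.22. Slc25a33, a mitochondrial pyrimidine nucleotide carrier, was at 7.64, 13.8 and 16.5 against 0, 5.16 and 3.97. In none of these 5 did the groups overlap.

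The windows before the starts of Slc1a3 (chr15:8710808-8711057, minus strand, no match) and Slc4a4 (chr5:88887010-88887259, plus strand, 1 match of the metal core on the opposite strand, and 1 of 2 windows of the gene) are shown because these carriers of glutamate and bicarbonate also divided the endomysial clusters, as given below.
Slc1a3: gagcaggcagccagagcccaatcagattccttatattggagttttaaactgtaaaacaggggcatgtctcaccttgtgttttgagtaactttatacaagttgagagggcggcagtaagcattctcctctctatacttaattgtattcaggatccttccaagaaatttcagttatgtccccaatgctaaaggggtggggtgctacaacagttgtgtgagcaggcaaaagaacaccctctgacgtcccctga
Slc4a4: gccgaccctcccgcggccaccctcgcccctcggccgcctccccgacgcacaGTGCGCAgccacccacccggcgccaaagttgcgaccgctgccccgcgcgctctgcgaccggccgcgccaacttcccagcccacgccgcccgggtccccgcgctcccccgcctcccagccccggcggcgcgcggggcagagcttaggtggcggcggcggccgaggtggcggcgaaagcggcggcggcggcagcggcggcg

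The 4 lower members included Slc9a8 and Slc9a9, sodium-hydrogen exchangers of the Golgi apparatus and endosomes. In the order Cspg4dsRED, the pool and PdgfrbGFP, Slc9a8 was at 0.460, 4.53 and 0.193 in cluster 10 and at 2.59, 18.2 and 15.8 in endomysial cells, a log2 ratio of −2.30 ± 1.34. Slc9a9 was at 0, 4.09 and 0 in cluster 10 and at 3.02, 23.5 and 18.2 in endomysial cells, a log2 ratio of −2.85 ± 1.23. The groups overlapped between strains for both. Slc27a3 did not exceed 0.112 in cluster 10 and was lower by a log2 ratio of −3.25 ± 0.37. Among the partners Emb (−3.91) and Atp1b1 (−2.49 ± 1.02) were lower, and so was Slco3a1 (−3.66 ± 1.49). The 5 Schwann cell markers summed to 63.0, 208 and 188 in cluster 10 and to 9.54 to 12.1 in endomysial cells of these strains. Nearly all of that was Cdh19, at 59.6, 208 and 164, while Mbp and Sox10 did not exceed 1.54. The 4 perineurial markers summed to 64.5, 211 and 93.3 in cluster 10 and to 307, 34.8 and 31 in endomysial cells, and of these Cldn1 was at 63.3, 211 and 37.6 in cluster 10 while Itgb4 did not exceed 0.0451. The endothelial markers summed to 10.3, 19.8 and 201 in cluster 10 and to 23.5, 87.3 and 90.8 in endomysial cells. The part of these markers in the levels of cluster 10 was not tested. Leaving out Cspg4dsRED, the pool or PdgfrbGFP gave 28, 32 and 22 members. All genes past 2-fold then numbered 1942, 2417 and 1692, against 1011 with no strain left out. The 8 PdgfrbGFP cells had the highest Slc1a3 and the highest endothelial sum.

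Among the endomysial clusters few carriers differed. In cluster 1, compared with the other endomysial cells in 4 strains, 1 of 147 members was higher (0.680%, against 1.28% of all genes) and 3 were lower (2.04%, against 3.3%). Slc4a4 was at 16.7, 21.4, 21.1 and 13.6 in cluster 1 of Acta2GFP, C57BL6, the pool and PdgfrbGFP, where the mean of the other endomysial cells was 3.13 ± 2.27, a log2 ratio of 2.46 ± 1.02. Slc1a3 was at 1.04, 0.225, 0.111 and 1.79 in cluster 1 against 15.8 ± 8.13 in the others, a log2 ratio of −3.21 ± 0.86. Slc46a1, a proton-coupled folate carrier, was at 1.32 ± 2.17 against 9.42 ± 4.38, and Slc25a15, a mitochondrial ornithine carrier, at 2.14 ± 1.59 against 7.09 ± 3.19. Slc43a3 had its highest level in cluster 1, at 340 to 638 over strains, with 351 ± 125 in cluster 8, 200 ± 53.0 in cluster 3 and 143 ± 42 in cluster 6, which overlapped between neighbours in that order. Emb and Fxyd6 were lower in cluster 1 (log2 ratios −3.42 ± 1.17 and −2.69 ± 1.27). The number of members past 2-fold was 9 without Acta2GFP, 6 without C57BL6, 8 without the pool and 7 without PdgfrbGFP. For all genes it was 610 to 652 in these settings, against 473 with no strain left out.

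In cluster 3 no member of 150 was higher (0.728% of all genes were) and 2 were lower (1.33%, against 1.76%). These were Slc4a4 at 1.58 ± 1.91 against 8.08 ± 3.11 (log2 ratio −2.01 ± 0.53) and Slc27a3 at 1.54 ± 2.15 against 9.07 ± 4.33 (−2.19 ± 0.88). In cluster 6, 1 of 149 was higher (0.671%, against 1.16%) and 0 lower (against 0.698%). This was Slc7a2, at 15.1, 14.7, 32.4 and 26.5 in C57BL6, Cspg4dsRED, the pool and PdgfrbGFP, where the other endomysial cells had a mean of 3.84 ± 2.99 (log2 ratio 2.53, 1.73 to 3.98 over strains). In cluster 8 none of 149 was higher or lower (against 0.806% and 0.882%). Slc1a3 was highest in clusters 8 (26.2 ± 10.5) and 6 (23.3 ± 22.6), without a 2-fold difference in every strain. Slco2a1 was lower in cluster 3 (−2.34 ± 0.80) and Atp1b2 higher in cluster 6 (2.42 ± 0.55). Without the pool, cluster 3 had 4 members past 2-fold, cluster 6 had 4 and cluster 8 had 1, and without PdgfrbGFP cluster 6 had 5 and cluster 8 had 1. Without Cspg4dsRED cluster 6 had 2. All genes past 2-fold, with no strain left out, numbered 256, 192 and 176 for clusters 3, 6 and 8. Without the pool they numbered 348, 275 and 232. Without PdgfrbGFP there were 329 for cluster 6 and 294 for cluster 8, and without Cspg4dsRED 401 for cluster 6.

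Strain labels could be set side by side within the endomysial cells, where each was a single unit and strain and plate cannot be told apart. Of 137 members with a mean of 5 or more, 15 (10.9%) were at least 2-fold higher in Cspg4dsRED than in every other strain, against 5.95% of all 9745 genes. Acta2GFP was above all others for 2 members (against 0.39% of all genes), the pool for 1 (0.472%), and C57BL6 and PdgfrbGFP for 0 (1.38% and 0.0308%). The genes of Cspg4dsRED, chosen after their values were seen, included the glucose carriers Slc2a4 at 74.1 and Slc2a1 at 128 there. The next highest strain was 19.2-fold and 11.6-fold lower on the scale of the scaled count plus 1. Slc29a1 was at 710 in Cspg4dsRED against 241 to 278 elsewhere, and Slc9a3r2 at 183 against 21 to 28.3. Of these 15 members 12 were also above every other strain within cluster 6. This overlap was largely fixed in advance, since 46 of the 51 Cspg4dsRED cells were of cluster 6. There they were set against C57BL6, the pool and PdgfrbGFP only. Within cluster 6 in all, 16 of 140 members (11.4%) and 570 of 9753 genes were highest in Cspg4dsRED by this measure. In the endomysial cells 4 perineurial markers (Cldn1, Itgb4, Perp and Tjp1) summed to 307 in Cspg4dsRED and to 20.0 to 34.8 in the others, with Itgb4 at 124 against at most 3.05. The muscle fibre markers summed to 198 against 64.3 to 102, and the depth per cell was lowest in Cspg4dsRED. Their part in the difference was not tested. The coefficient of variation over strains had a median of 39.9% for members and 39.5% for all genes.

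The muscle label, which took part neither in the rule nor in the clusters, allowed the only test. It asked whether carriers differ between soleus, a mainly slow muscle, and gastrocnemius, a mainly fast one. Endomysial counts were summed for each muscle of the pool (108 soleus and 194 gastrocnemius cells) and of PdgfrbGFP (90 and 112 cells), and the 4 sums were tested over all genes with edgeR, with the strain label as a block. The sums differed in their clusters. In PdgfrbGFP the soleus sum held 0 cells of cluster 1, 51 of cluster 3, 13 of cluster 6 and 26 of cluster 8, and the gastrocnemius sum 16, 19, 23 and 47. In the pool 47 of the soleus cells and 116 of the gastrocnemius cells were of cluster 3. Of 16337 genes, 168 of them members, 0 passed an adjusted p of 0.05 (0% in either direction). At an unadjusted p under 0.05 there were 8 members (4.76%) and 807 genes (4.94%), and with DESeq2 0 of 168 members and 111 of 15070 genes with an adjusted p (0.737%) passed the threshold. Within cluster 3, 0 of 164 members and 0 of 13774 genes passed (0%), with 8 members (4.88%) and 497 genes (3.61%) at an unadjusted p under 0.05. This count moved, for members and for all genes, in most of the settings that left out 1 sum. Such a fit holds a single sum of 1 muscle, so its counts at an unadjusted p are not given. Since the labels name no animal, these p-values measure only the spread between the sums. The design has few of them, and a p that misses the threshold does not show that the muscles were alike.

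The 5 members with the smallest p in endomysial cells lay on the same side of 0 in both strain labels, and none passed the adjusted threshold. The choice by a small p over these same labels favours such members, so this is no replication. Of all members tested, 93 of 168 lay on the same side in endomysial cells and 76 of 164 in cluster 3. Slc25a5 was at 73.7 in soleus and 40.7 in gastrocnemius of the pool and at 60.7 and 34.3 in PdgfrbGFP, a log2 ratio of 0.75 ± 0.20 (SE, edgeR adjusted p = 0.967). Slc9a9 was at 36.1 and 18.4 in the pool, at 28.3 and 10.1 for PdgfrbGFP, a log2 ratio of 1.13 ± 0.31. Slc43a3 was at 234 and 323 in the muscles of the pool and at 225 and 308 in those of PdgfrbGFP, a log2 ratio of −0.55 ± 0.16. Slc39a3, a zinc carrier, had a log2 ratio of −0.94 ± 0.30 and Slc12a9 one of −1.35 ± 0.45. All of these had an edgeR adjusted p of 0.967. Slc43a3, whose level differed between clusters, had a negative ratio within cluster 3 as well, and Slc25a5 a positive one. The cells of cluster 3 are part of the same sums, and the part of the clusters in these ratios was not tested. In cluster 3 the smallest p belonged to Slc25a5 (log2 ratio 1.36 ± 0.37), Slc38a10 (−1.29 ± 0.36), Slc27a3 (5.25 ± 1.54), Slc9a3r2 (−1.74 ± 0.58) and Slc43a3 (−0.71 ± 0.25). DESeq2 called 1 of 161 members in cluster 3 (0.621%) and 88 of 12171 genes (0.723%), so the share of members was near that of all genes. The member was Slc27a3 (DESeq2 adjusted p = 0.0161), which was at 2.32 and 0.131 in the muscles of the pool and 21.5 and 0.156 in those of PdgfrbGFP. The muscles of the pool lay on separate plates, so plate and muscle cannot be told apart there, and those of PdgfrbGFP shared a plate. Ckm, the creatine kinase of muscle fibres, had a log2 ratio of −2.20 ± 0.40 (edgeR adjusted p = 0.967), Myh4 was at 0 in both soleus sums and at 6.98 and 1.08 in gastrocnemius, and Acta1 had a log2 ratio of −0.14 ± 0.20. Their part was not tested.

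**Figure D5:**
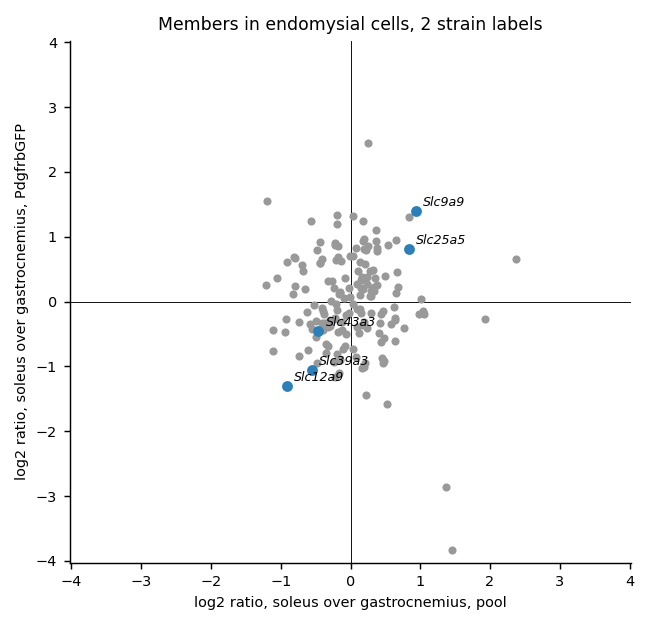
Log2 ratio of soleus over gastrocnemius (scaled counts plus 1) of each tested member in endomysial cells, in the pool (x axis) and in PdgfrbGFP (y axis), 1 point per member. The 5 members with the smallest p are in blue, and none passed the adjusted threshold. They lie on the same side of 0 in both, which their choice by p favours. Of all 168 members tested, 93 lay on the same side.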

How the data were processed

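Raw counts of reads for each gene in each cell were deposited. The authors demultiplexed single reads with bcl2fastq, trimmed adapters with trim galore, mapped to GRCm38 with TopHat2 and counted reads per gene with featureCounts of the Subread package, and they assigned the clusters with pagoda2. The submitters' processing notes also name Bowtie, Bowtie2 and mm10. The annotation release and the use of strand were not given in the sources used here, so antisense and overlapping genes are uncertain. Smart-seq2 has no molecular identifiers. Doublets were treated by the authors in the sort and by a limit on genes per cell, and none were sought here with a caller.

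The count table had 46517 genes and 92 spike-ins, which took 1.31% of counts and were left out, and 1 column without a labelled cell was not used. No pair of columns was identical. Symbols came from GENCODE M21, which matched 46005 identifiers and missed 512. Members and gene lists were chosen with earlier results of these data known. Each cell was scaled to 500000 counts. Ratios were taken within a strain, with a pseudocount of 1, for genes with a mean of 5 or more on either side and for strains with 3 or more cells a side. For the muscle sums the test was that of edgeR 4.0.16 under R 4.3.3 (TMM, filterByExpr, quasi-likelihood test, Benjamini-Hochberg adjustment over all genes). The test ran with the strain label as a block and was checked on simulated data. Alternatives were the TMM-scaled sums, a pseudocount of 5, a minimum of 20 scaled counts, 10 cells a side, RLE factors, no filter, no block, DESeq2 1.42.0 and leaving out each strain or sum. Genes were named by a rule: the 8 largest ratios a direction among those past 2-fold in every strain, the 5 smallest p of each muscle test, the 10 highest per length in fibroblasts and mural cells, the 5 members on each side of the detection threshold, the 35 listed carriers, and the 2 highest of each substrate group in fibroblasts. Some genes that the rule or the lists named are counted in the totals but not reported here by name. Scripts ran in Python 3.11.15 with numpy 2.4.6 and pandas 2.3.3.

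Markers of adipocytes (Adipoq, Plin1, Cidec and Lep) summed to 0 in mural cells and 0.0403 in fibroblasts. Those of satellite cells (Pax7, Myf5 and Myod1) summed to 0.336 in fibroblasts and to 36.4 in mural cells of Acta2GFP, with 0 in the other strains. Those of endothelium (Pecam1, Cdh5, Kdr, Tek and Cldn5) summed to 110 in mural cells of the pool and to 4.12 to 15.0 in the others. The 5 perimysial markers (Thbs4, Tnmd, Col11a1, Col12a1 and Scx) were at least 2-fold above endomysial cells in every strain, and of the 3 paramysial markers Postn and Cthrc1 were so in paramysial cells.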

Additional observations from a re-analysis of the deposited data

Results flagged for a closer look

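Of the 41 named ratios with 4 or 5 strains, 3 had a strain whose gap to its nearest neighbour was large for the range of the group by Dixon's test. By chance about 1 in 20 groups would. In mural cells against fibroblasts the log2 ratio of Slc16a1, the lactate and pyruvate carrier, was −2.39 in Cspg4dsRED and −4.20 to −3.94 in the other strains. In the same comparison the log2 ratio of Slc9a3r1 was 1.72 in PdgfrbGFP and 2.73 to 3.03 in the others. In cluster 1 against the other endomysial cells the log2 ratio of Slc4a4 was 3.99 in Acta2GFP, from 6 cells of cluster 1, and 1.91 to 1.99 in the others. All 3 had the same direction in every strain, which was fixed in advance, since only ratios past 2-fold in every strain were checked.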

How the results depend on the processing

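The number of members stood at 175 and was 164 with 10 raw counts, 129 with 20% of cells, 176 with cluster 5 and 182 with scaled counts. The 10 named ratios between muscles had no call in the main setting. Of their alternatives, 99 kept the sign without a call, 1 gained a call and 0 turned. Those that left out a strain label gave a sign only, with no test. The 10 ratios were chosen by their small p, which favours a kept sign. Of the alternatives for 50 named ratios between classes or clusters, 408 kept the 2-fold call, 59 lost it and 0 turned direction. These ratios were chosen as past 2-fold in every strain. Leaving out a strain, 10 cells a side or no filter could therefore remove a call only through the minimum level. The calls kept there were fixed in advance and do not show stability. The losses came mainly with a pseudocount of 5 or a minimum of 20 scaled counts, which by construction take low genes below 2-fold or out of the comparison. For mural cells both gave 14 members past 2-fold in place of 25, and for perimysial cells both gave 2 in place of 4. TMM gave 26 members for mural cells, 23 of them among the 25. For perimysial cells it gave 6, with only 2 of them among the 4. All genes past 2-fold with TMM numbered 1469 and 597 in these comparisons, against 1437 and 610. For paramysial cells TMM, the pseudocount and the minimum each gave 1 in place of 3. For cluster 10 the minimum gave 5 and 10 cells a side gave 22 in place of 9. For cluster 9 against 2, TMM gave 5, the pseudocount 1 and 10 cells a side 12 in place of 2. TMM moved the median log2 ratio of all genes there from 0.037 to −0.12. For cluster 1 the pseudocount gave 2, the minimum 0 and 10 cells a side 9 in place of 4. For cluster 3, TMM gave 4 and the pseudocount and the minimum 0 in place of 2, for cluster 6, 10 cells a side gave 2 in place of 1, and for cluster 8, TMM gave 1 in place of 0. With 10 cells a side the paramysial comparison could not be made, since too few strains remained. Leaving out 1 strain gave 28 to 34 members for mural cells, 4 to 12 for perimysial cells, 4 to 25 for paramysial cells, 22 to 32 for cluster 10 and 5 to 12 for cluster 9 against 2. It gave 6 to 9 for cluster 1, 3 to 4 for cluster 3, 1 to 5 for cluster 6 and 0 to 1 for cluster 8. Over all genes, the number past 2-fold rose whichever strain was left out, in all of these comparisons. With 10 cells a side it rose likewise where a strain dropped out.

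The muscle test called 0 members under every alternative in endomysial cells, and in cluster 3 under all but DESeq2, which called 1. Leaving out 1 sum called 0 to 0, with the lone sum of a strain assumed to vary like the others. The strain block paired the muscles of a strain label. The correlation of the deviations of paired sums was 0.137 in endomysial cells and 0.0886 in cluster 3, over 2 pairs only. Without the block 0 members were called as well. At an unadjusted edgeR p under 0.05 there were then 3 and 4 members in place of 8 and 8. All genes at that p numbered 609 and 455 in place of 807 and 497. Depth was lowest in mural cells among the clusters and in Cspg4dsRED among the strain labels, and its part in their values was not tested. With 3 to 11 cells a single cell can set a strain's value.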
